A study of Mus musculus with 6 samples.

Results

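Transforming growth factor beta (TGF-beta) genes were examined in RPE/choroid of C57BL/6J mice. This tissue, scraped out of opened eyecups, joins the retinal pigment epithelium (RPE) to the choroid, its vascular bed. The 9 genes were chosen by symbol from the deposited table of 33924 genes, and all 9 were present: the ligands Tgfb1, Tgfb2 and Tgfb3, the latent binding protein Ltbp1, the receptors Tgfbr1 and Tgfbr2, the inhibitor Smad7 and the targets Tgfbi and Ctgf. Total RNA was sequenced after removal of ribosomal RNA in 3 Young mice, aged 1 to 2 months by the labels, and in 3 Aged mice, aged 20 to 24 months by the titles and 22 to 24 months by the time label. Every mouse was labelled male and wild type C57BL/6J, without treatment. Both sexes, and a higher age for the young mice, are given in the study's methods. The measurement is 1 mean per gene over all 6 libraries, in normalized counts, because the remaining columns of the table are the authors' own contrast of the ages and were not used. Levels of young and aged mice were therefore not compared, and no value per mouse, SD or test stands behind any level given here. In a scraped tissue, a low level from few cells and a low level in each cell cannot be told apart.

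TGF-beta is secreted as a latent complex, in which the ligand is held by its own propeptide and tethered to the extracellular matrix through a latent TGF-beta binding protein. Integrins and other factors release the active ligand, which binds the type II receptor, recruits the type I receptor and leads to phosphorylation of Smad2 and Smad3. With Smad4 these enter the nucleus, where they raise transcription of matrix genes and of Smad7, an inhibitor of the same receptor. In the back of the eye the pathway is known for its part in epithelial-mesenchymal transition of RPE cells, in fibrosis and in keeping immune cells quiescent.

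The start regions of 2 ligand and 2 receptor genes are shown first, as the regulatory sequence of the genes that open the pathway. Within both pairs the letters differ, and no relation of these letters to a level was tested. Each sequence is the 250 bases before the annotated start from RefSeq (GRCm38.p6), 5′ to 3′ on the strand of the gene, and capitals mark GGGCGG or its reverse complement (GC box), TATAAA or its reverse complement (TATA box) and CAGAC or its reverse complement (Smad box).
Tgfb1, chr7:25686752-25687001, plus strand: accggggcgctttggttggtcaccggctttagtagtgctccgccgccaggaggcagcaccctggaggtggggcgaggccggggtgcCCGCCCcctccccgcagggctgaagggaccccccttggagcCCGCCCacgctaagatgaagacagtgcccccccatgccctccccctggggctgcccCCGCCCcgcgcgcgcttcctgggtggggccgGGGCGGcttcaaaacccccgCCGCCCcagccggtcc
Tgfb2, chr1:186705990-186706239, minus strand: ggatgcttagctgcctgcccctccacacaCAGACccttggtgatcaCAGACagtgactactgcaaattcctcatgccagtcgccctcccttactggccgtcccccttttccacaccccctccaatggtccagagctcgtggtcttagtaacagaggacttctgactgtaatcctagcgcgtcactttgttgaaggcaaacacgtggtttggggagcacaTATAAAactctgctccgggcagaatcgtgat
Tgfbr1, chr4:47352972-47353221, plus strand: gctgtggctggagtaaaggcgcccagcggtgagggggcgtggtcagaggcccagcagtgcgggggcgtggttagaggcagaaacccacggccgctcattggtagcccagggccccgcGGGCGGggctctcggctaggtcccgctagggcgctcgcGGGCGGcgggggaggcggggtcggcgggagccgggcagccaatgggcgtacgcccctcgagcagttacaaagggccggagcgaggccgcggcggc
Tgfbr2, chr9:116175364-116175613, minus strand: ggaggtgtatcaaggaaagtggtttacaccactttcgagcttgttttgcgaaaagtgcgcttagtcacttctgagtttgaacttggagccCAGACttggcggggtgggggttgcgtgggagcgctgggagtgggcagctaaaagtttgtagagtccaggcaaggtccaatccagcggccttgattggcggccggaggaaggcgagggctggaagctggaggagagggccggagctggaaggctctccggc

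The stretch before Tgfb1 held 5 GC boxes and 0 TATA boxes, at a G and C content of 75.2%. The stretch before Tgfb2 held 0 GC boxes and 1 TATA box, which began 31 bases before the start, at a G and C content of 53.6%. Before Tgfbr1 there were 2 GC boxes and a G and C content of 74.8%, and before Tgfbr2 there were 0 GC boxes and 58.4%. Counted over the full window of 300 bases (250 before and 50 after the start), the Tgfb1 promoter held 6 GC boxes. A GC box occurred in 35.7% of the 32851 windows of all genes, and 5 or more of them in 2.71%. A TATA box on either strand occurred in 13.6% of these windows.

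The Smad box is the short element that Smad3 and Smad4 bind. It was found 2 times before Tgfb2, 1 time before Tgfbr2 and 0 times before Tgfb1 and in the first of the Tgfbr1 windows. Since 49.6% of all windows held at least 1 Smad box, a match is common. The window at the other start of Tgfbr1 held 1. Windows were matched for 6 of the 9 genes, in 8 windows. The Tgfbi window held 2 Smad boxes and 2 GC boxes, and the windows at the 2 starts of Ltbp1 held 1 and 2 Smad boxes. The letters GGAATG (TEAD motif, the site of the Yap and Taz partners) and TGACTCA (AP-1 motif), searched on both strands, had 0 matches in the 8 windows, against 14.7% and 5.20% of all windows. Tgfb3, Ctgf and Smad7 had no entry in this promoter table.

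All 9 genes lay above the median of the 26681 genes with a mean above 0, which was 82.1 normalized counts. By the mean, Tgfb1 did not lie above the median of protein-coding genes alone, of which 46.4% lay below it (52.9% by the mean per kb), nor above that of genes with a mean of at least 10, of which 43.9% did. Together they summed to 29763 normalized counts, 0.155% of the summed mean of the table. The lowest was Tgfb1, with 62.2% of these genes below it, and the highest was Ctgf, with 99.5% below it. The means spanned 39.9-fold from Tgfb1 to Ctgf. Long transcripts collect more reads, so levels of different genes are compared per kb of the longest protein-coding transcript, and on that scale the span was 34.8-fold.

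**Figure D1:**
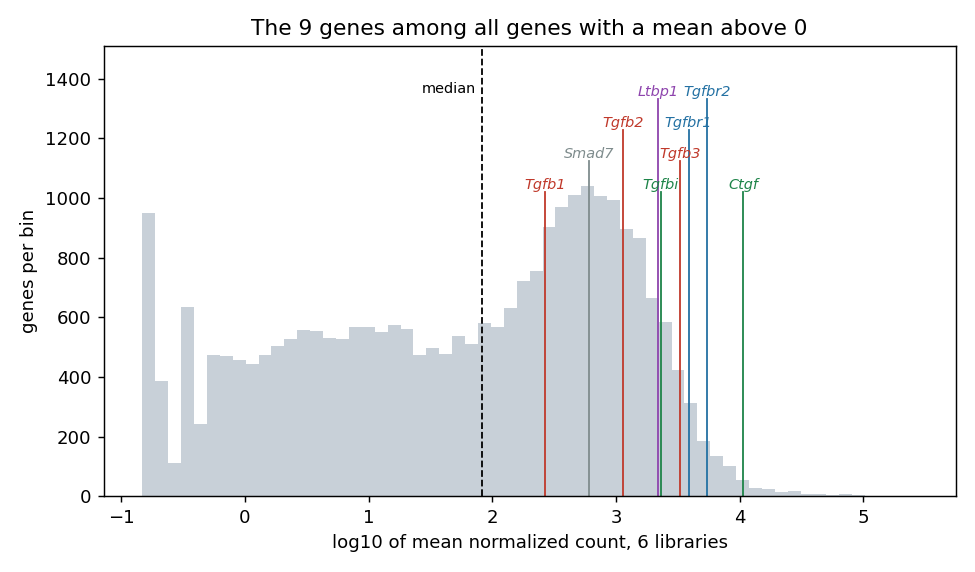
Histogram of the log10 mean normalized count over 6 libraries of the 26681 genes with a mean above 0, with a vertical line for each of the 9 TGF-beta genes and a dashed line at the median of 82.1. All 9 lines stand to the right of the dashed line (at the median of protein-coding genes alone, by the mean, Tgfb1 would not), from Tgfb1 at 268 to Ctgf at 10692 normalized counts.

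Size factors of the libraries, a proxy for their depth, were read from the lowest values of the table. A gene with 1 count in 1 library has a mean that depends only on the size factor of that library, the number that scales it for depth. The means of 1338 genes stood on exactly 6 such steps. These gave size factors from 0.835 to 1.12, so that the largest exceeded the smallest 1.35-fold. Read totals per library are not known from these steps. Of the 2721 means under 0.593, 100% were sums of whole counts on these steps, within 1e-05. The steps do not say which mouse a library came from. The summed mean over all genes was 19192071 normalized counts per library. Tgfb1, the lowest of the 9 genes, rests on 1609 normalized counts over the 6 libraries, which leaves a counting error of at most 2.73%, and Ctgf rests on 64152, with at most 0.432%. These errors cover counting alone and not the variation between mice.

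The ligands are close relatives that bind the same receptors. Tgfb3 was the most abundant of them. Its mean over the 6 libraries was 3282 normalized counts, or 970 per kb, and 96.0% of the genes with a mean above 0 lay below it. Tgfb2 had 1144 normalized counts, or 224 per kb. Tgfb1, the form made by many immune cells and platelets, had 268 normalized counts, or 123 per kb.

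Of the summed level per kb of the ligands, Tgfb3 made up 73.7%, Tgfb2 17.0% and Tgfb1 9.36%. Per kb, Tgfb3 was 4.34 times as abundant as Tgfb2 and 7.87 times as abundant as Tgfb1. The size of these ratios depended on the length used. Over 4 lengths (the longest protein-coding transcript, the longest transcript of any type, the union of all annotated exons and the coding length) the ratio of Tgfb3 to Tgfb2 ran from 3.08 to 4.91 and that of Tgfb3 to Tgfb1 from 7.87 to 18.2. The order Tgfb3, Tgfb2, Tgfb1 was the same with each length and with no length correction. For Tgfb1 the lengths differ widely, with 5042 bases in the exon union, 2573 in the longest transcript of any type and 2175 in the longest protein-coding one.

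Tgfb1 lies on chromosome 7 at 25687002 to 25705077 of GRCm38, Tgfb2 on chromosome 1 at 186622792 to 186705989 and Tgfb3 on chromosome 12 at 86056745 to 86079041. On the opposite strand, exons of the antisense gene Gm29491 overlap 2.14% of the exon bases of Tgfb2, and exons of Gm48008, a processed transcript, and Gm37804, an unclassified annotation, overlap 7.60% and 4.82% of those of Tgfb3. The library kit keeps the strand, but it is not stated that the counting used it. Few stretches are shared with transcripts of other genes when each is read in its own direction. By this count 98.2% of the 31-base words of Tgfb1 transcripts, 99.8% for Tgfb2 and 100% for Tgfb3 occurred in no other annotated gene. For the other 6 genes the share ran from 98.4% to 100%. Reverse complements were not searched, so bases shared with genes on the opposite strand are not part of this count.

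Ltbp1 ties latent TGF-beta to fibrillin-rich matrix. Its mean was 2184 normalized counts, or 327 per kb, and 92.7% of genes with a mean above 0 lay below it. It lies on chromosome 17 at 75005568 to 75392512, with 10 annotated transcripts. Its relatives, which bind latent TGF-beta or matrix, stood close to it. Ltbp2 had 385 normalized counts per kb, Ltbp3 434 and Ltbp4 453. Ltbp4 was 1.15 to 1.85 times as abundant as Ltbp1 over the 4 lengths. Fbn1, the fibrillin of mature microfibrils, was the highest of the 7 listed genes of the latent complex at 876 per kb. Lrrc32, which presents latent TGF-beta on the cell surface, was the lowest at 58.9 per kb.

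Release of the active ligand was represented by 11 listed genes, of which 9 had a mean of at least 100 normalized counts, against 48.2% of all genes with a mean above 0. Thbs1, a matricellular activator of latent TGF-beta, was the highest at 4334 normalized counts per kb. Itgb8, the integrin beta chain that pairs with Itgav and binds latent TGF-beta, was close behind at 3873 per kb, with 99.9% of genes below its mean of 32549 normalized counts. Whether Thbs1 or Itgb8 came first depended on the length, with a ratio of 0.510 to 1.42. Itgav itself had 1880 per kb. Itgb6, an activating beta chain known from other epithelia, had 78.9 per kb, and Itgb8 exceeded it 49.1-fold to 88.0-fold over the 4 lengths. Itgb8 and Itgb6 were chosen for mention after their values had been seen. The lowest was Plg, the precursor of plasmin made mainly in liver. Its mean of 0.200 is the step left by 1 count in the library with the smallest size factor. Mmp9, at 51.7 normalized counts, was the other gene under 100.

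The receptors stood side by side. Tgfbr2, the constitutively active type II kinase, had a mean of 5436 normalized counts, and Tgfbr1, the type I kinase that phosphorylates Smad2 and Smad3, had 3857. Per kb the values were 672 and 670, a ratio of 1.00. The longest transcript of any type gave the same values. With the exon union and the coding length the ratio of Tgfbr2 to Tgfbr1 was 1.12 and 1.20, and without a length correction it was 1.41. The size of the gap thus depended on the length (longest transcripts of 8092 bases for Tgfbr2 and 5756 for Tgfbr1). By the longest transcripts the ratio, 1.003, lay within the counting errors of at most 0.606% for Tgfbr2 and 0.719% for Tgfbr1. Neither receptor can be placed first there, and Tgfbr2 stood first in the other cases. In the ranking by the mean, 98.3% of genes lay below Tgfbr2 and 97.1% below Tgfbr1.

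Tgfbr1 lies on chromosome 4 at 47353222 to 47414931 and Tgfbr2 on chromosome 9 at 116084293 to 116175360, and exons of other genes overlap neither. The other listed receptors were lower per kb with each length. Eng, which is abundant on endothelium, had 570 normalized counts per kb. Acvrl1, the endothelial type I receptor, had 451, and Tgfbr3 (betaglycan), which presents Tgfb2 to its receptors, also had 451 and came last of the 5 by less than that rounding, while the exon union put Acvrl1 last and the coding length Eng.

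**Figure D2:**
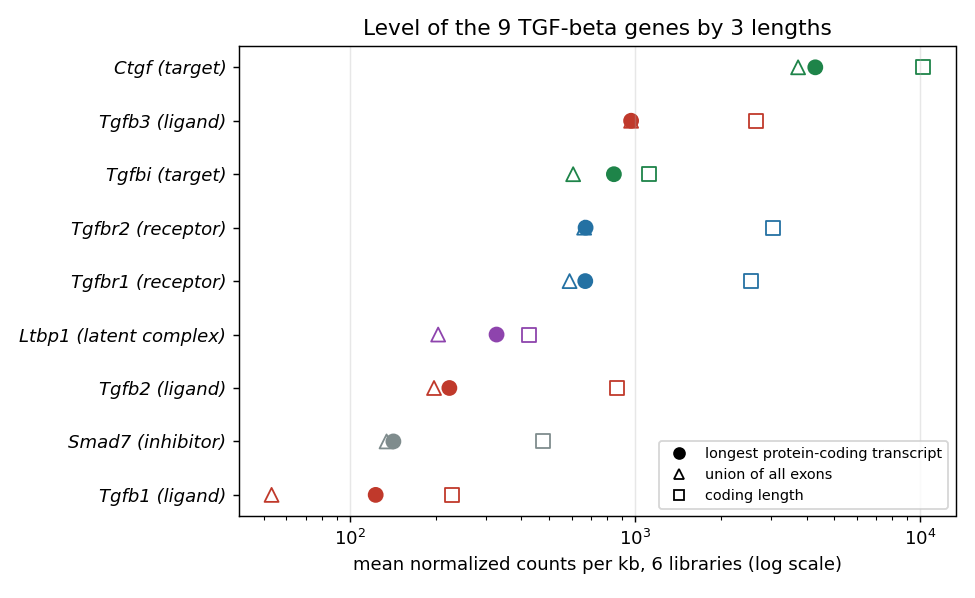
Mean normalized counts per kb over 6 libraries on a log axis for each of the 9 genes, with filled circles for the longest protein-coding transcript, triangles for the union of exons and squares for the coding length, coloured by role. Ctgf stands apart at the top with 4294 per kb by the longest transcript, and Tgfb1 is lowest with each length.

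The Smad proteins carry the signal from the receptors. Smad4, the common partner, was the highest of the 4 listed genes at 540 normalized counts per kb, Smad3 had 329 and Smad2 was the lowest at 139. By the coding length Smad3 stood above Smad4, with 1314 against 1105, and Zfyve9 was the lowest, with 596 against 800.2 for Smad2. Zfyve9, which anchors Smad2 and Smad3 near the receptor, had 387.

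Smad7 recruits ubiquitin ligases to the type I receptor and is itself induced by the pathway. Its mean was 609 normalized counts, or 142 per kb, and 74.8% of genes with a mean above 0 lay below it. By these values only Tgfb1 was lower among the 9 genes. By the coding length Ltbp1 was lower as well, with 425 per kb against 476 for Smad7. Smad7 lies on chromosome 18 at 75367529 to 75395935. Smad4 exceeded it 2.32-fold to 3.79-fold over the 4 lengths and Smad3 2.25-fold to 2.76-fold. Smad6, the inhibitor that acts mainly on bone morphogenetic protein signals, had 209 per kb, and its ratio to Smad7 ran from 0.879 to 1.47, so the order of these inhibitory Smads rests on the length. Among the 10 listed inhibitors Tgif1, a nuclear corepressor of Smads, was the lowest with each length, at 102 per kb by the longest protein-coding transcript and 55.4 by the longest transcript of any type, and lower still by the exon union. Dcn, a matrix proteoglycan that binds TGF-beta and is abundant in fibroblasts, was the highest with each length, at 24704 by the longest protein-coding transcript, 9256 by the longest transcript of any type, 7439 by the exon union and 40894 by the coding length. The nuclear corepressor Skil, itself a target of the pathway, had 531.

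Among the targets, Ctgf was the highest of the 9 genes. Ctgf (Ccn2 in current annotation) encodes a matricellular protein that TGF-beta and the Yap and Taz coactivators induce. Its mean was 10692 normalized counts, rank 137 of 33924 genes, and its level was 4294 per kb, 88.8 times the median of the 24876 genes with a mean above 0 and a known length. It lies on chromosome 10 at 24595442 to 24598683. Gm15270, a processed transcript on the opposite strand, overlaps 23.2% of the exon bases of Ctgf, and the mean of that gene was 88.7 normalized counts. The related gene Cyr61, induced by the same coactivators, had 644 per kb, and Ctgf exceeded it 5.81-fold to 8.96-fold over the 4 lengths.

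Tgfbi, a secreted matrix protein named for its induction by TGF-beta and known for corneal dystrophies, had 2291 normalized counts, or 844 per kb. It lies on chromosome 13 at 56609523 to 56639562. Ctgf exceeded it 5.09-fold to 9.16-fold. Tgfbi stood near Tgfb3 by the longest transcript, with a ratio of 0.870, and lower by the coding length, with 0.421.

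All 14 listed targets had a mean of at least 100 normalized counts, against 48.2% of all genes with a mean above 0. The highest by the longest transcript was Col1a2, a chain of type I collagen, at 12072 per kb. Col1a1 and Col3a1 followed with 7732 and 6392 and Ctgf came next. By the exon union Col1a1 was the highest, with 6986 against 5196 for Col1a2. By the exon union and by the coding length Ctgf stood above Col3a1, with 3737 against 3623 and 10241 against 8098. Of the 54 pathway genes, 52 had a mean of at least 100 normalized counts, against the same 48.2% of all genes. Above the median of genes with a mean above 0 lay 52 of them. By the longest protein-coding transcript the median level per kb by role was 1162 for targets, 928 for activators, 570 for receptors, 385 for the latent complex, 358 for Smads, 224 for ligands and 196 for inhibitors. By the exon union and by the coding length the roles fell in another order, so none is read from these medians. The list was drawn up from known members of the pathway, and such a list holds well expressed genes by choice.

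**Figure D3:**
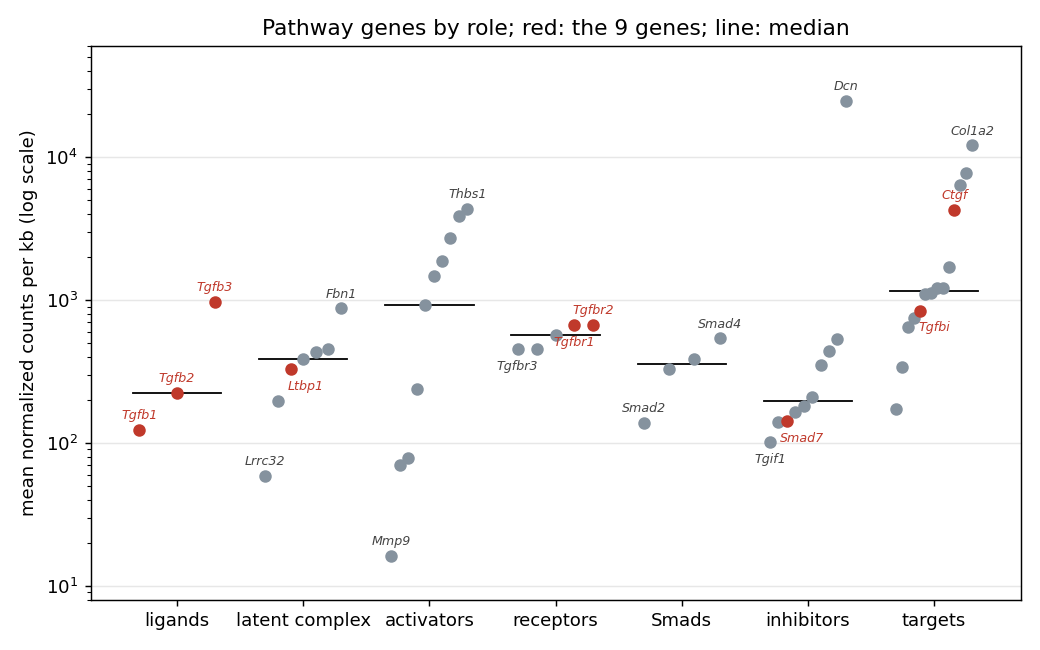
Mean normalized counts per kb of the longest protein-coding transcript, on a log axis, for 53 of 54 pathway genes in 7 roles, with the 9 genes in red and the median of each role as a line (Plg, at a mean of 0.200, is off the axis but counts in its role's median). Tgfb1 and Tgfb2 stand low beside the receptors, and Ctgf stands below 3 collagen genes among the targets by this length.

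The labelled tissue was checked against markers. Of 7 RPE markers, 6 had means from 10046 to 99321 normalized counts, among them Rpe65 with 43745, while Best1, an ion channel of RPE, had 69.8. Ttr was the highest RPE marker per kb, at 83745, and Dct the highest pigment marker by the longest protein-coding transcript, at 40484. By the longest transcript of any type and by the exon union Dct had 25772 and 15122, below Pmel with 27072 and 25159. Vascular and stromal cells were represented by Plvap for endothelium (1187 per kb), Rgs5 for mural cells (5211), Lum for fibroblasts (3753), C1qa for macrophages (3633), Pmp22 for Schwann cells (1272) and Cma1 for mast cells (331). T cell markers were low, with the 4 means between 11.6 and 38.1 and Cd3g at 36.0 per kb. Markers of neighbouring tissue were present as well. The 6 rod photoreceptor markers had a median of 3808 per kb, skeletal muscle genes were led by Acta1 at 12062 and lens genes by Cryaa at 1559. How much each cell type gave to the level of any of the 9 genes was not tested.

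**Figure D4:**
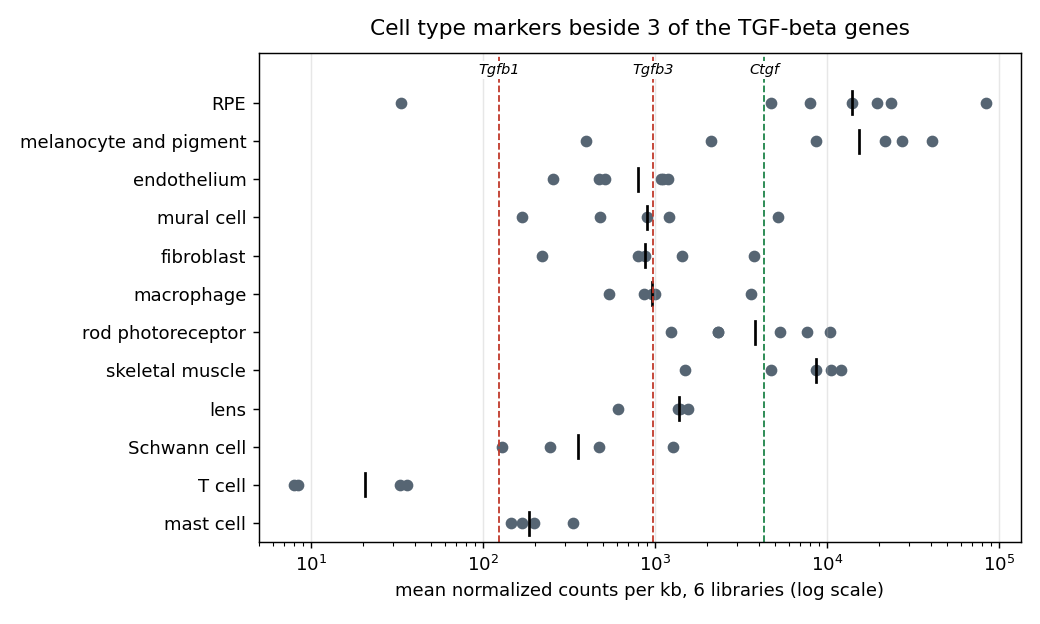
Mean normalized counts per kb on a log axis for the markers of 12 cell types (points, with the median as a bar), with dashed lines at Tgfb1, Tgfb3 and Ctgf. By the longest protein-coding transcript Tgfb3 lies within the range of the markers of 8 of the 12 cell types, for RPE through Best1 alone. Which types these are depends on the length. By the exon union the lens range (up to 951) does not hold Tgfb3 at 970, and the rod photoreceptor range (from 695) does. By the longest protein-coding transcript 6 of 7 RPE markers lie to the right of Ctgf (by the exon union Rdh5, with 3576 against 3737, does not).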

How the data were processed

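Total RNA of 6 RPE/choroid samples (3 Young, 3 Aged, grouped by title) was depleted of ribosomal RNA, without poly(A) selection, and made into libraries with a stranded kit. According to the methods of the study, the authors trimmed reads with BBDuk, used STAR and Ensembl transcripts of GRCm38 for mapping, quantified TPM values by Sailfish, turned these into normalized counts by the total count method and compared the ages with DESeq2. Sharing of reads between overlapping genes would move their means and is not described in the sources used here. The 1 deposited table has 1 line per gene. Its baseMean column is a signal that the authors computed, the mean normalized count over all 6 libraries. Its other columns (log2 fold change, standard error, Wald statistic, p-value and adjusted p) hold the authors' comparison of the ages and were not used. The table held 0 columns that name a sample. With these columns set aside, the groups were not compared and no test was run, and 7243 of the 33924 genes had a mean of 0.

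Gene symbols were matched to GENCODE M21 (GRCm38), through RefSeq synonyms where the symbol had changed, which gave a length to 93.2% of the genes with a mean above 0. Across 18017 protein-coding genes the mean rose with transcript length (Spearman correlation 0.38) and the mean per kb hardly did (0.088), so the means were taken to be on a read scale, not already divided by length, and levels of different genes are given per kb. These points share libraries and are a description. The lengths are those of the longest protein-coding transcript. This length replaced the longest transcript of any type after values per kb had been seen, because the longest transcript of Tgfb1 is a retained intron. Promoter windows are from RefSeq (GRCm38.p6), and the 5 motifs, the 4 promoters printed and the pairs of genes set against each other were chosen after the table had been read. The reading of size factors from the lowest means was tried on simulated whole counts. Such counts leave these steps by construction, so the trial checks the calculation alone and not the nature of the deposited values. Members and lists were chosen with earlier results of these data known. Named are the 9 genes, the highest and lowest gene per kb of each pathway role, the highest of each marker list, and others singled out after their values had been seen. Of the genes this rule names, 2 are not reported here. A protein comparison was planned but not run. Calculations used Python 3.11.15, pandas 2.3.3 and scipy 1.17.1.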

Additional observations from a re-analysis of the deposited data

How the results depend on the processing

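No paired analysis was possible because no column gives a value per mouse, only 1 mean over all libraries. For the same reason no replicate could be left out. Counting leaves an error of at most 2.73% for Tgfb1, and the spread between mice is not known. The median share of genes below the 9 genes was 93.2%. It was 94.6% with genes at 0 included, 89.9% among genes with a mean of at least 10, 92.0% by the mean per kb and, in alternatives added after the data had been seen, 90.2% among protein-coding genes and 89.9% among these per kb. Tgfb1 lay below the median among genes with a mean of at least 10, with 43.9% below it, and among protein-coding genes by the mean, with 46.4%, but not among protein-coding genes by the mean per kb, with 52.9%. The share of Tgfb3 in the ligands, 73.7% by the longest transcript, was 69.9% with no length correction, 70.9% by coding length 79.5% by the exon union, which was added after the data had been seen, and 74.7% by the longest transcript of any type, the length used first and replaced after its values had been seen. The share of Tgfbr2 in the 2 receptors, 50.1%, was 58.5%, 54.5%, 52.9% and 50.1% in the same order. Of the 9 genes, 5 kept their place in the order with no length correction, 2 by coding length, 7 by the exon union and 9 by the longest transcript of any type, which gave Tgfb1 104 and Tgfbi 763 normalized counts per kb. Pathway genes past the minimum numbered 52 at 100, 53 at 30 and 49 at 300 normalized counts, against 48.2%, 58.0% and 36.2% of all genes with a mean above 0.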
